A study of Mus musculus with 18 samples.

Results

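Bone marrow derived macrophages of Ch25h-/- mice were compared with those of B6 (C57BL/6) mice after stimulation with PAM3 (Pam3CSK4), by RNA-seq. The comparison used the libraries whose labels give the genotype Ch25h-/- or C57BL/6, no added oxysterol and PAM3: 3 libraries per genotype, each from a separately numbered mouse, so 6 of the 18 libraries of the series. The other 12 libraries are unstimulated macrophages of both genotypes (3 each) and B6 macrophages treated with 25-hydroxycholesterol (25HC, 5 uM, 18 h), 3 without and 3 with PAM3. PAM3 was given at 300 ng/mL, and the labels give its time as 18 for stimulated and 0 for resting cells, with no unit. Ch25h-/- macrophages were not combined with 25HC in the libraries used. The labels do not give the sex, age or breeding of the mice, nor which part of Ch25h is deleted.

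Ch25h encodes cholesterol 25-hydroxylase, the enzyme of the endoplasmic reticulum that turns cholesterol into the oxysterol 25HC. This oxysterol holds back the processing of SREBP, the transcription factor of cholesterol synthesis, activates the nuclear receptors LXR, and is the precursor of the ligand of the chemotactic receptor GPR183. Macrophages make it after Toll-like receptor or interferon signals, and it is known for antiviral effects and for effects on inflammatory cytokines. Pam3CSK4 is a synthetic triacylated lipopeptide that is sensed by TLR2 together with TLR1.

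The libraries held 39966508 to 150440297 counts in B6 and 22257303 to 24119611 counts in Ch25h-/- cells with PAM3, so depth moved with genotype. Transcripts of the mitochondrial genome took 1.11 to 1.55% of counts in B6 and 1.43 to 1.74% in Ch25h-/-. Over the 6 libraries the first principal component held 51.6% of the variance, and Ch25h-/- replicate 2 lay apart at -57.3, against -11.3 and 5.28 for the other Ch25h-/- libraries and 3.2 to 35.0 for B6. Of the macrophage identity list, all 18 genes were detected, and their summed level was 52150 to 66530 CPM (gene counts scaled to a common library total) in B6 and 56760 to 61550 CPM in Ch25h-/-. Most of the sum was Lyz2 (mean 32631 CPM in B6, 30766 in Ch25h-/-) and Emr1 (12375 and 13768 CPM), so it says little of the other members. Of the 18, 3 lay wholly below B6 and 2 wholly above. Of 12 neutrophil markers 6 were tested: Ltf, S100a9, Ngp and S100a8 were higher in all 3 Ch25h-/- libraries than in all B6 libraries, Lcn2 was lower in all 3, and Ly6g and Retnlg had 0 counts. Over all genes tested 7.13% were higher and 13.3% lower in all 3 Ch25h-/- libraries than in all B6 libraries. S100a9 was at 0.587, 0.605 and 1.35 CPM in B6 and 2.72, 8.80 and 3.21 CPM in Ch25h-/- cells. The summed neutrophil list was 1011 to 1548 CPM in B6 and 215.3 to 974.2 CPM in Ch25h-/-, nearly all of it Lcn2, which macrophages also express. Refits without this library are given beside the results, and the part of the neutrophil markers in them was not tested. In bulk RNA, fewer cells of a type and less RNA per cell cannot be told apart. Xist was counted in all 12 libraries of the 2 genotypes without 25HC.

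Of 12741 genes tested, 22 (0.173%) differed between the genotypes with PAM3 at an adjusted p below 0.05 in edgeR's quasi-likelihood test, and these are the genes called here. Of these, 16 were lower in Ch25h-/- cells (0.126%) and 6 were higher (0.0471%). Arhgap22, Rgs11, Mical1, Irf2bp2 and Rhob fell, and Ccr2, Sos1 and Fgd6 rose. A difference of at least 2-fold was seen in 11 of the 22, 4 higher and 7 lower. In all 22 the 3 libraries of one genotype lay wholly above those of the other, which held for 20.4% of all genes tested (7.13% higher, 13.3% lower). The 22 were selected on these same libraries, so their separation follows in large part from the selection and is no further support. At an unadjusted p below 0.05 there were 1783 genes (14.0%). The count of calls depended on single libraries. Without Ch25h-/- replicate 2 only 3 genes were called (Arhgap22, Rgs11 and Mical1), without Ch25h-/- replicate 3 only 1 (Arhgap22), without B6 replicate 1 or 3 again 3, without B6 replicate 2 85 and without Ch25h-/- replicate 1 254. An edgeR fit of these 6 libraries alone called 0 of 11764 genes, with 1477 at an unadjusted p below 0.05. DESeq2, fitted to all 18 libraries as the main fit was, called 404, all 22 among them.

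**Figure D1:**
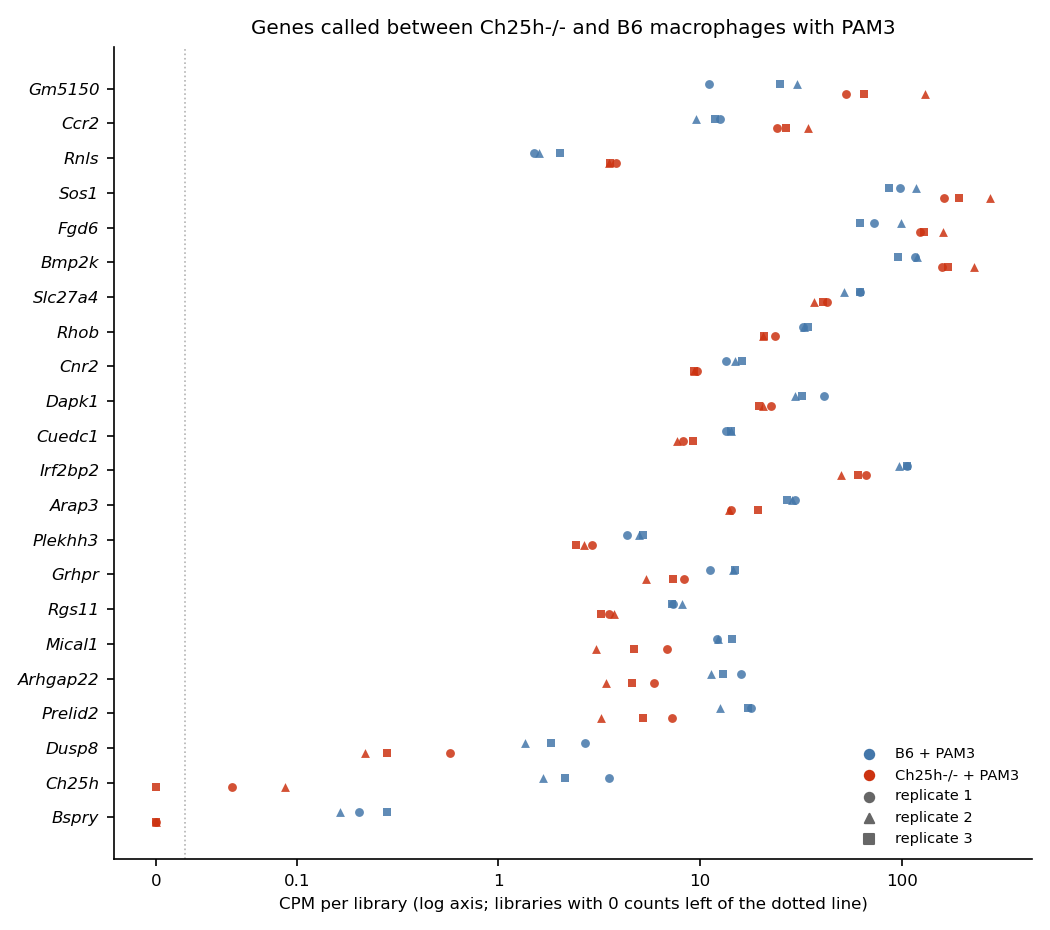
Level of the 22 called genes in each of the 6 libraries with PAM3, in CPM on a log axis, 1 gene per row ordered by fold change; blue points are B6, red points Ch25h-/-, and the marker shape gives the replicate number. The red and blue points of a gene do not overlap in any row, which follows in large part from selecting the genes on these libraries. The lowest rows (Ch25h, Bspry) include libraries with 0 counts.

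The knocked-out gene itself checked the labels. Ch25h (chr19:34473778-34475164, minus strand, GRCm38) had 139, 234 and 76 counts in B6 replicates 1 to 3 with PAM3 and 1, 2 and 0 counts in Ch25h-/- cells. Normalised to library size, B6 exceeded Ch25h-/- 45.5-fold, with a 95% counting interval of 15.5 to 221, which covers counting error only. It fell by 5.64 ± 1.00 (log2 fold change ± SE, adjusted p = 0.0383, edgeR). At rest the counts were 660, 227 and 490 in B6 and 2, 0 and 2 in Ch25h-/-, a ratio of 117 (45.4 to 428). In B6 cells Ch25h was lower with PAM3 (3.55, 1.66 and 2.14 CPM) than at rest (20.4, 3.16 and 10.2 CPM), a log2 fold change of -2.21 ± 0.53 (adjusted p = 0.00195, edgeR). A long noncoding gene, Gm26902, overlaps Ch25h on the other strand; it was at 0.361 CPM in B6 and 0.698 CPM in Ch25h-/- with PAM3 and the libraries overlapped. The strand setting of the counting is unknown, so reads of such pairs may not be separated. Of the called genes 11 have an annotated gene on the opposite strand, and in 4 of them (Ch25h, Bmp2k, Mical1, Plekhh3) that gene was itself tested.

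Promoter sequences are shown for the called genes of at least 5 CPM with the largest changes in each direction whose upstream window does not run into the annotated gene: Grhpr and Irf2bp2 among those that fell, Sos1 and Fgd6 among those that rose. Each run is the 250 bases before the RefSeq start, on the gene's strand (GRCm38.p6). Capitals mark the interferon response core GAAANNGAA (Irf2bp2, beginning 141 bases before the start) and the CCAAT box (Fgd6, 144 and 80 bases before the start, read on the opposite strand as ATTGG).
Grhpr, chr4:44981144-44981393, plus strand: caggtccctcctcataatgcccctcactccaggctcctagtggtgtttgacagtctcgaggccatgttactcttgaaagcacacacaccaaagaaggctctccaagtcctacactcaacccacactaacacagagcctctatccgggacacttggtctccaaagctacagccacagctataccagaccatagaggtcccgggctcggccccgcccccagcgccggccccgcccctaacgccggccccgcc
Irf2bp2, chr8:126593987-126594236, minus strand: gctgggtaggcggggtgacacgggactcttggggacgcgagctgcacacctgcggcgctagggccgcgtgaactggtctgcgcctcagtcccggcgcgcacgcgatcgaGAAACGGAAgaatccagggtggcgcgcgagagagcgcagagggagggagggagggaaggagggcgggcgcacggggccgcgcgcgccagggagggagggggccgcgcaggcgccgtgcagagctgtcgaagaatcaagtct
Sos1, chr17:80480454-80480703, minus strand: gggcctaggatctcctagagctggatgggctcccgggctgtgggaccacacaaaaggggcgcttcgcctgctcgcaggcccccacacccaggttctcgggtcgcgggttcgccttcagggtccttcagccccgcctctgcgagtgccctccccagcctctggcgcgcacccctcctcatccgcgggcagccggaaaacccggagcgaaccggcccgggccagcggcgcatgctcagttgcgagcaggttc
Fgd6, chr10:94035751-94036000, plus strand: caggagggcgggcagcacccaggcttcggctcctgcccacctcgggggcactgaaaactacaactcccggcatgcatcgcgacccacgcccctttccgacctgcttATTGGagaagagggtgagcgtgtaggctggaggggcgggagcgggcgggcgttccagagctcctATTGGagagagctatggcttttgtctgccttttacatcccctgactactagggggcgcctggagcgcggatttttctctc

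The search for motifs covered both strands of these windows for 18 of the 22 called genes and 9436 tested genes that RefSeq's table holds. GAAANNGAA was found for 2 of 5 genes that rose (Ccr2, 86 bases before the start, and Gm5150, 240 bases before it) and 2 of 13 that fell (Irf2bp2 and Plekhh3), against 7.65% of all windows' genes. The CCAAT box was found for 1 of 5 and 6 of 13, against 40.8%. The sterol element TCACNCCAC (1.26% of genes), the NF-kB core GGGANTTTC (1.06%) and the AP-1 motif TGANTCA (5.68%) were in none of the 18. Matches did not overlap each other in the printed windows, and they describe letters, not binding.

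The called genes are given by role, an order made after the calls were seen and not tested for enrichment. Arhgap22, a GTPase-activating protein for Rac (chr14:33214026-33369934), was at 15.9, 11.3 and 12.9 CPM in B6 and 5.87, 3.40 and 4.60 CPM in Ch25h-/- cells. The lowest B6 library, at 11.3 CPM, lay well above the highest Ch25h-/- library. It fell by 1.53 ± 0.18 on the log2 scale (adjusted p = 0.00289, edgeR) and was called in all 6 fits that left out 1 library. Mical1, a monooxygenase that takes apart actin filaments (chr10:41476314-41487032), was at 12.2, 12.3 and 14.4 CPM in B6 against 6.87, 3.05 and 4.69 CPM, and fell by 1.41 ± 0.19 (adjusted p = 0.00842, edgeR). Ch25h-/- replicate 2 was the lowest for both genes. The gene on Mical1's other strand, Smpd2, had a log2 fold change of -0.41 and was not called.

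Rhob, an endosomal small GTPase, stood at 32.2, 32.8 and 34.3 CPM in B6 and 23.6, 20.5 and 20.6 CPM in Ch25h-/-, a fall of 0.62 ± 0.11 (adjusted p = 0.0383, edgeR). Arap3, a phosphoinositide-dependent GTPase-activating protein, was at 29.5, 28.5 and 27.1 CPM against 14.2, 13.9 and 19.3 CPM. Sos1, which loads Ras with GTP (chr17:80393751-80480453), was at 97.7, 117 and 86.1 CPM in B6 and 162, 274 and 191 CPM in Ch25h-/- cells, 1.06 ± 0.16 higher on the log2 scale (adjusted p = 0.0166, edgeR). Fgd6, an exchange factor of the Cdc42 class, was at 72.9, 98.6 and 62.1 CPM against 123, 160 and 129 CPM. For both, Ch25h-/- replicate 2 was the highest library, and without it neither was called (Sos1, log2 fold change 0.81, adjusted p = 0.0653, edgeR).

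Ccr2, the receptor for CCL2 that brings monocytes out of the marrow (chr9:124101950-124113557), was at 12.5, 9.54 and 11.8 CPM in B6 and 24.1, 34.3 and 26.7 CPM in Ch25h-/-. All 3 Ch25h-/- libraries lay above the B6 range, and the gene rose by 1.33 ± 0.21 on the log2 scale (adjusted p = 0.0166, edgeR). Without Ch25h-/- replicate 2 the difference was 1.17, with adjusted p = 0.143. Cnr2, the cannabinoid receptor of immune cells, was at 13.4, 14.8 and 16 CPM against 9.64, 9.37 and 9.30 CPM and fell by 0.64 ± 0.12. Rgs11, a regulator of G protein signalling (chr17:26202951-26211324), was at 7.36, 8.15 and 7.26 CPM against 3.53, 3.75 and 3.21 CPM, a fall of 1.12 ± 0.15 (adjusted p = 0.00842, edgeR). The 3 libraries of each genotype lay close together for Rgs11 and Cnr2.

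Dusp8, a phosphatase of MAP kinases, was low throughout, at 2.68, 1.35 and 1.83 CPM in B6 and 0.573, 0.218 and 0.279 CPM in Ch25h-/- cells, and fell by 2.44 ± 0.41 (adjusted p = 0.0317, edgeR). Dapk1, a calmodulin-regulated kinase linked to cell death, fell by 0.72 ± 0.13, from 41.2, 29.5 and 31.8 CPM to 22.3, 20.4 and 19.7 CPM. Bmp2k, a kinase of the clathrin adaptor pathway, was at 116, 118 and 95.8 CPM in B6 and 159, 229 and 170 CPM in Ch25h-/-, and rose by 0.75 ± 0.14 (adjusted p = 0.0476, edgeR). No library of one genotype lay within the range of the other for any of the 3.

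Irf2bp2, a transcriptional corepressor that partners with IRF2 (chr8:126588296-126593986), was at 105, 96.4 and 105 CPM in B6 and 66.6, 49.8 and 60.7 CPM in Ch25h-/- cells. It fell by 0.79 ± 0.12 on the log2 scale (adjusted p = 0.0166, edgeR) and by 0.69 without Ch25h-/- replicate 2 (adjusted p = 0.11, edgeR). Among genes of metabolism, Slc27a4, which takes up and activates long-chain fatty acids, fell by 0.55 ± 0.10, from 62.1, 51.4 and 61.6 CPM to 42.5, 36.7 and 40.4 CPM. Grhpr, an enzyme that reduces glyoxylate, fell by 0.95 ± 0.18, from 11.2, 14.6 and 14.8 CPM to 8.31, 5.40 and 7.30 CPM. Prelid2, a relative of mitochondrial lipid carriers, fell by 1.60 ± 0.25 (adjusted p = 0.0166, edgeR). It was at 17.9, 12.5 and 17.2 CPM against 7.26, 3.22 and 5.21 CPM, so the groups stayed well apart. Cuedc1, an adaptor with a ubiquitin-binding CUE domain, fell by 0.74 ± 0.13.

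Dusp8 and the 4 genes that follow lay outside the rule for naming genes, 4 for a mean under 5 CPM in both groups and Gm5150 as a predicted gene, and were chosen after their values were seen. Rnls, which encodes the flavoprotein renalase, rose by 1.10 ± 0.16 (adjusted p = 0.0166, edgeR), from 1.51, 1.59 and 2.03 CPM to 3.82, 3.53 and 3.58 CPM. Gm5150, a predicted gene, rose by 1.90 ± 0.35, from 11.0, 30.0 and 24.9 CPM to 52.6, 129 and 64.7 CPM. Plekhh3 fell by 0.87 ± 0.16 and had under 5 CPM in the mean of both groups. Bspry had 8, 23 and 10 counts in B6 and 0 in each Ch25h-/- library, at least 4.15-fold lower with 3 counts over the group as the floor. At rest Bspry was counted in both genotypes, 102 counts in B6 and 32 in Ch25h-/-, a depth-normalised ratio of 1.08 (0.719 to 1.66).

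At rest the same genotypes differed in 1 gene of 12741 (0.00785%), Ch25h itself, and 704 genes had an unadjusted p below 0.05 (5.53%). With the mouse number as a replicate block 2 genes were called at rest. Libraries were apart for 10.2% of genes at rest. Of the 22 genes called with PAM3, 18 had the same sign at rest, 21 a smaller log2 difference, and 12 were apart in the same direction. These genes were selected for their difference with PAM3, so a smaller one at rest follows in part from the selection. The resting and stimulated cells came from the same numbered mice, so the 2 comparisons are not independent. Ccr2 was at 264, 246 and 361 CPM in resting B6 and 447, 560 and 471 CPM in resting Ch25h-/- cells, a log2 difference of 0.76 ± 0.20 that was not called (adjusted p = 0.559, edgeR). Mical1 (log2 difference -0.65 ± 0.18) and Arap3 (-0.65 ± 0.15) were likewise lower at rest in every Ch25h-/- library and not called. Rgs11 (0.06 ± 0.14), Irf2bp2 (0.05 ± 0.12), Prelid2 (0.00 ± 0.27), Grhpr (0.14 ± 0.18) and Sos1 (0.08 ± 0.16) had log2 differences near 0 at rest.

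**Figure D2:**
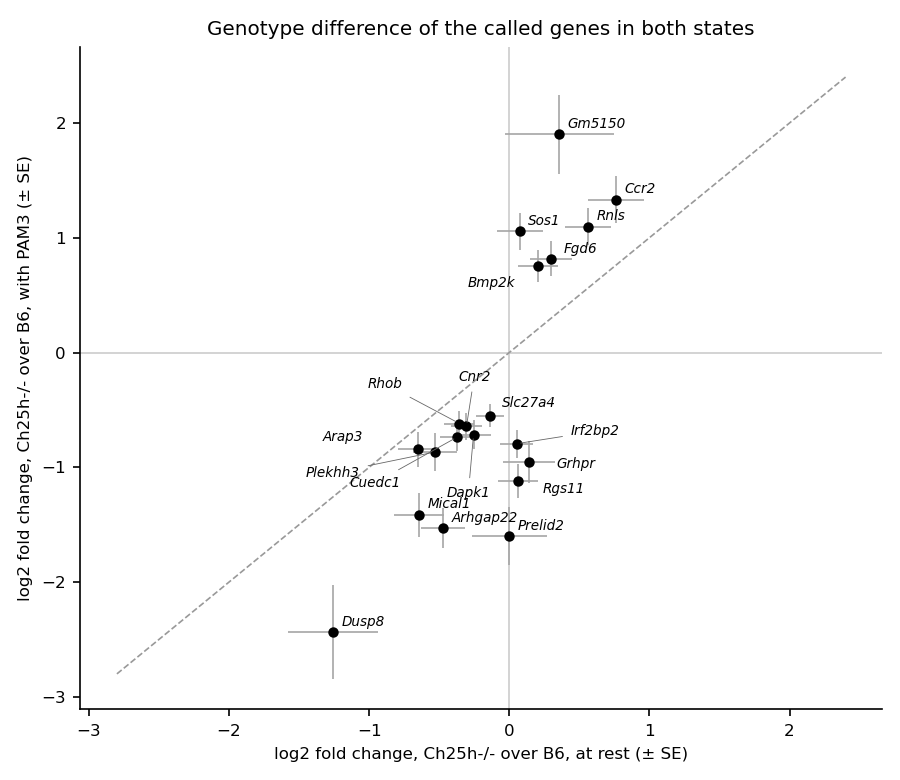
Genotype difference of 20 called genes (Ch25h and Bspry, with libraries at 0 counts, are left out) at rest on the x axis and with PAM3 on the y axis, each as log2 fold change of Ch25h-/- over B6 with its SE; the dashed line marks equal differences. Most points lie farther from 0 with PAM3 than at rest, which follows in part from selecting the genes by their PAM3 difference. Rgs11, Irf2bp2, Prelid2, Grhpr and Sos1 lie near 0 at rest.

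Whether the genotype difference itself depended on PAM3 was tested as an interaction in edgeR's quasi-likelihood model. It called 0 of 12741 genes, with 598 at an unadjusted p below 0.05 (4.69%), and DESeq2 called 2. Rgs11 had the smallest adjusted p, 0.481, with an interaction of -1.18 ± 0.21 on the log2 scale. The interaction was -1.60 ± 0.36 for Prelid2 (adjusted p = 0.766), -1.06 ± 0.24 for Arhgap22 (adjusted p = 0.766), -0.85 ± 0.17 for Irf2bp2 (adjusted p = 0.652) and 0.98 ± 0.23 for Sos1 (adjusted p = 0.808). So none of the 22 genes is shown to differ more with PAM3 than at rest.

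The position of the called genes was examined because a knockout can carry linked DNA of the strain it was made in. Rnls lies 1.209 Mb from Ch25h (chr19:33137747-33392295), and both were the only called genes of 463 tested on chromosome 19. Within 5 Mb of Ch25h 2 of 55 tested genes were called (3.64%), and within 10 Mb 2 of 121 (1.65%), against 0.173% of all genes. In both windows these were Rnls and Ch25h itself, the knocked-out gene. Libraries were apart for 19% of genes within 10 Mb, close to the 20.4% of all genes. The nearest neighbours were not called: Lipa, the lysosomal acid lipase gene, had a log2 difference of -0.04 ± 0.16, Ifit2 0.10 ± 0.44, Ifit1 -0.24 ± 0.38 and Fas -0.75 ± 0.23 (adjusted p = 0.150, edgeR). Rnls was also higher in all 3 Ch25h-/- libraries at rest, at 3.71, 3.36 and 3.46 CPM against 2.41, 2.24 and 2.49 CPM. The strain of origin of the allele is not given in the labels, and its part in the Rnls values was not tested.

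**Figure D3:**
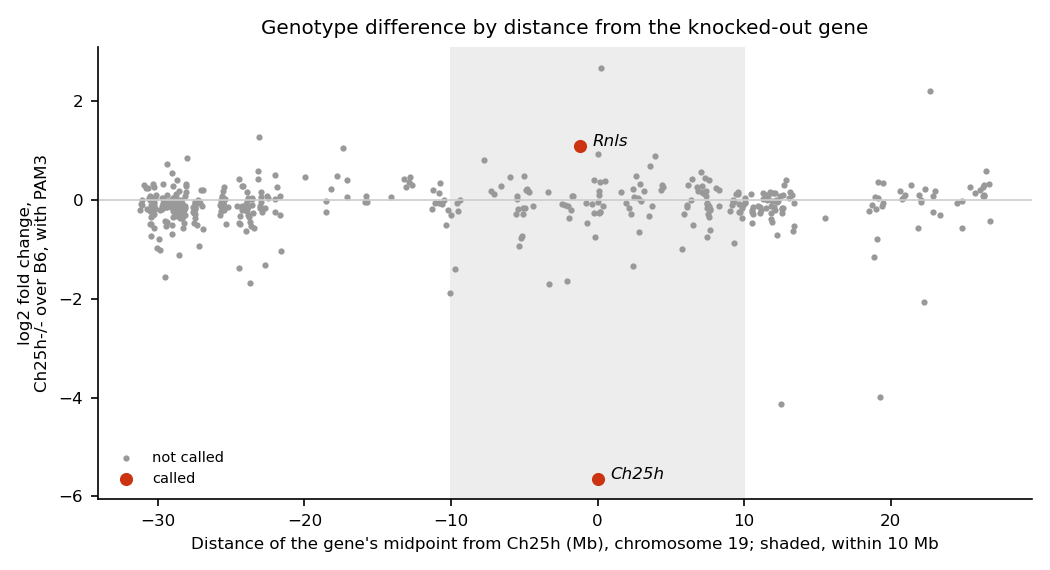
Log2 fold change of Ch25h-/- over B6 with PAM3 for 463 tested genes of chromosome 19 (y axis) against the distance of the gene's midpoint from that of Ch25h in Mb (x axis); red points are called genes and the shaded band is the range within 10 Mb. Ch25h and Rnls are the called genes, and genes within the band scatter around 0 as elsewhere on the chromosome.

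Beyond Ch25h, no member of the 38 gene lists examined was called with PAM3 in the main fit. The lists are therefore described by their libraries and medians. With the mouse number as a replicate block members of several lists were called, as given under the dependence on processing. The median log2 fold change over all tested genes was -0.044. For the 22 genes of glycolysis and the hypoxia response the median was -0.685 with PAM3 and -0.107 at rest. In 19 of the 22 all Ch25h-/- libraries lay below all B6 libraries (13.3% of all genes did), and in 0 of 22 at rest (5.49% of all genes did). The exceptions were Hif1a, Pfkfb4 and Hk2. Bnip3, a mitophagy receptor induced in hypoxia, was at 116, 70.5 and 108 CPM in B6 and 59.6, 25.6 and 49.2 CPM in Ch25h-/- cells, -1.13 ± 0.25 on the log2 scale with the smallest adjusted p of the list, 0.0677 (edgeR). Pfkl, the liver-type phosphofructokinase, was at 317, 310 and 327 CPM against 215, 120 and 201 CPM (-0.83 ± 0.19). Slc16a3, the lactate exporter, was at 394, 375 and 442 CPM against 249, 84.2 and 198 CPM (-1.19 ± 0.33). The 2 members of the highest level differed less, Aldoa by -0.53 ± 0.20 and Pkm by -0.38 ± 0.34. Ch25h-/- replicate 2 was the lowest of its group for 21 of the 22 genes, against 39.6% of all genes. Without that library the median was -0.489, 0 genes were called and 7 had an unadjusted p below 0.05 (951 of all 12967 genes did). Without replicate 2 of every group 11 of the 22 were called lower and 0 higher, against 273 and 111 of all 12731 genes. With all libraries edgeR called 0 of the 22, and 15 had an unadjusted p below 0.05 (14.0% of all genes did). DESeq2 called 7 lower, and 260 of all genes. Several of these enzymes, Gapdh most of all, have near-identical processed copies elsewhere in the genome, so their counts are uncertain.

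Cytokine genes spread widely between libraries of 1 group. Of 21 tested, 8 lay wholly below B6 and 1 (Il10) wholly above, against 13.3% and 7.13% of all genes. The median was -0.893 (-0.124 at rest). Il1b was at 2756, 798 and 1421 CPM in B6 and 643, 90.6 and 355 CPM in Ch25h-/- cells, -2.19 ± 0.70 on the log2 scale (adjusted p = 0.158, edgeR). Osm, a cytokine of the IL-6 family, was at 11.4, 7.06 and 9.23 CPM against 4.44, 3.31 and 4.74 CPM (-1.14 ± 0.23, adjusted p = 0.0592, edgeR). Il6 was at 66.0, 9.41 and 21.4 CPM against 13.3, 0.915 and 9.43 CPM, and Il1a at 707, 48.9 and 126 CPM against 60.9, 2.09 and 25.4 CPM; both overlapped. Il10, the anti-inflammatory cytokine, was at 14.7, 22.5 and 25.6 CPM in B6 and 35.3, 46.3 and 39.2 CPM in Ch25h-/- (0.94 ± 0.27, adjusted p = 0.120, edgeR). Tnf, at 267, 190 and 205 CPM against 168, 99.3 and 158 CPM, differed by -0.64 ± 0.47. Ebi3, which with Il1b had the highest level of the list, differed by -0.28 ± 0.23 and overlapped. Replicate 2 was the lowest of both genotypes for 17 of the 21 genes. Without Ch25h-/- replicate 2 the median was -1.002 with 0 called. Without replicate 2 of every group 6 were called lower and 1 higher, against 273 and 111 of all 12731 genes. With all libraries edgeR called 0, and 13 had an unadjusted p below 0.05 (14.0% of all genes did). There were 6 without B6 replicate 1 and 8 without Ch25h-/- replicate 2. DESeq2 called 3 lower and 1 higher, against 260 and 144 of all genes.

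**Figure D4:**
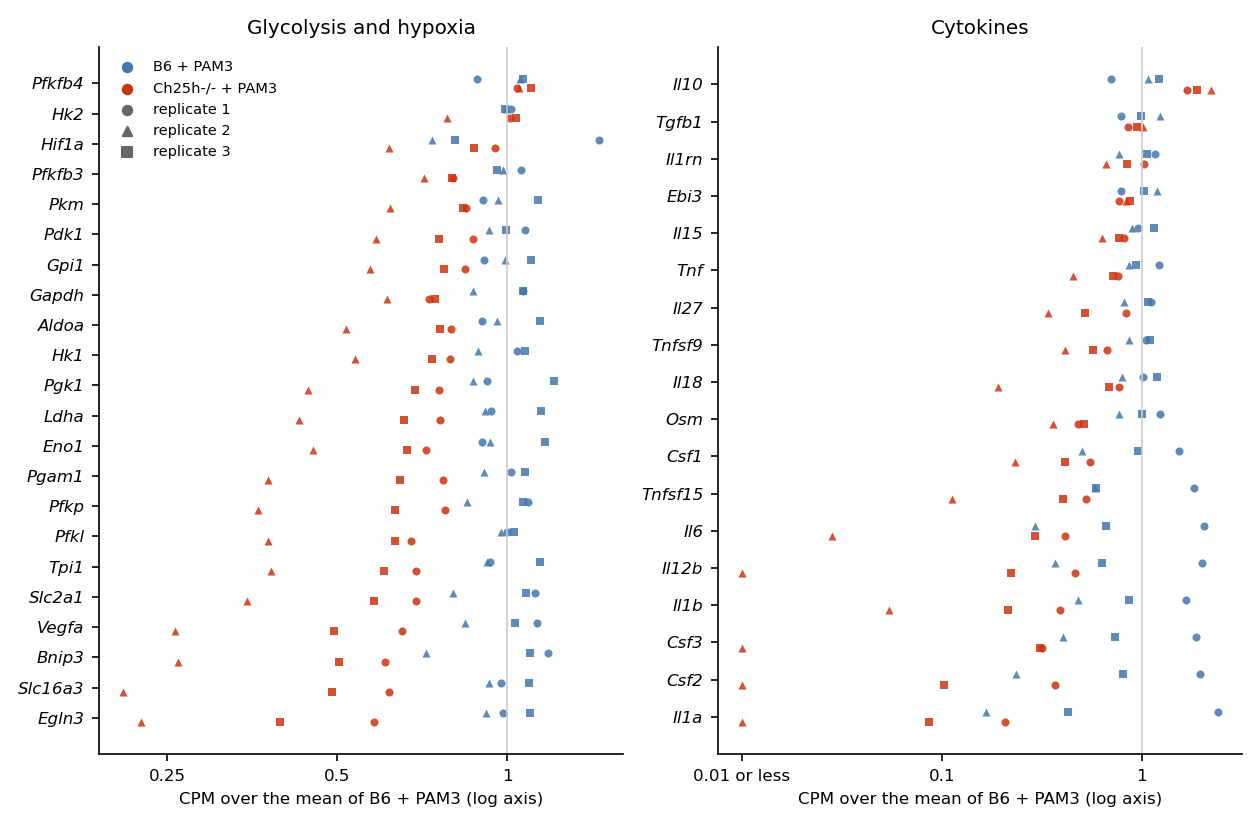
CPM of each library with PAM3 divided by the mean of the 3 B6 libraries, on a log axis, for the 22 genes of the glycolysis and hypoxia list (left) and the cytokines whose mean reached 1 CPM in either genotype (right); blue is B6, red Ch25h-/-, marker shapes are replicates, and values at or under 0.01 are drawn at the left edge. On the left the red points lie below the blue ones for 19 genes, with replicate 2 of Ch25h-/- farthest left for most; on the right the blue points spread over a wide range for Il1a, Il6 and Csf2.

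Chemokines had a median of -0.769 over 20 tested genes (-0.496 without Ch25h-/- replicate 2, -1.238 without Ch25h-/- replicate 1). All Ch25h-/- libraries lay below B6 for 3 and above for 1, near the shares of all genes (13.3% and 7.13%). Of the 20, 7 had an unadjusted p below 0.05 (14.0% of all genes did), and 3 without B6 replicate 1. DESeq2 called 3 lower, and 260 of all genes. The 2 members of the highest level, Ccl9 (-0.83 ± 0.28) and Ccl5 (-0.55 ± 0.59), overlapped. Ccl3 was at 781, 342 and 493 CPM in B6 and 298, 126 and 270 CPM in Ch25h-/- cells (-1.22 ± 0.32, adjusted p = 0.106, edgeR). Cxcl1, the neutrophil attractant, was at 15.3, 2.50 and 9.26 CPM against 2.82, 0.523 and 0.790 CPM; the lowest B6 library lay below the highest Ch25h-/- library. Of the 10 genes of arginine, nitric oxide, itaconate and prostaglandin production (median -1.21, and -0.756 without Ch25h-/- replicate 2), 2 lay wholly below: Ptges, the prostaglandin E synthase, at 294, 196 and 232 CPM against 153, 28.2 and 95.3 CPM, and Irg1, the itaconate synthase, at 2813, 1195 and 1841 CPM against 999.7, 113 and 669 CPM. Their log2 differences were -1.38 ± 0.40 (adjusted p = 0.123) and -1.71 ± 0.68 (adjusted p = 0.261, edgeR). Over all genes 13.3% lay wholly below. Cybb, which had the highest level of this list, overlapped (-0.32 ± 0.20).

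Among receptors and adaptors of the Toll-like receptor pathway, 4 of 18 lay wholly below B6 and 3 wholly above. Over all genes the shares were 13.3% and 7.13%. Tlr2, the receptor for PAM3, was at 420, 306 and 358 CPM in B6 and 238, 208 and 266 CPM in Ch25h-/- cells (-0.61 ± 0.20, adjusted p = 0.163, edgeR). Its partner Tlr1 differed by 0.11 and Tlr6 by -0.20 ± 0.13. Cd14, the coreceptor that hands lipopeptides on to TLR2, was at 1431, 1101 and 1440 CPM against 867, 552 and 696 CPM (-0.91 ± 0.20, adjusted p = 0.0698). Tirap, the adaptor that recruits MYD88, was at 42.8, 45.7 and 39.9 CPM against 54.8, 69.6 and 59.8 CPM (0.52 ± 0.11, adjusted p = 0.0605). Neither Cd14 nor Tirap passed the threshold, although the libraries of both were apart.

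Downstream, 8 of the 16 NF-kB subunits and feedback inhibitors lay wholly below B6 and 1 above, against 13.3% and 7.13% of all genes. The median was -0.287. The 2 members of the highest level went opposite ways, Nfkbia by -0.39 ± 0.23 and Nfkbiz, wholly above B6, by 0.43 ± 0.28. Nfkbie, which encodes the inhibitor IkB epsilon, was at 29.1, 24.1 and 25.6 CPM against 16.8, 12.7 and 15.3 CPM (-0.82 ± 0.17, adjusted p = 0.0605, edgeR). Rela, the p65 subunit, was at 81.9, 84.8 and 91.4 CPM against 69.2, 71.9 and 69.9 CPM, a log2 difference of -0.29 ± 0.09. In the MHC class II and costimulation list 4 of 11 lay wholly below (13.3% of all genes did). Among them was Cd40 (54.9, 41.3 and 49.7 CPM against 36.2, 23.8 and 29.0 CPM). Of the 11, 4 had an unadjusted p below 0.05 (14.0% of all genes did), and 2 without Ch25h-/- replicate 2. At the highest level of the list, H2-Ab1 differed by -1.08 ± 0.45 and Cd74 by 0.25 ± 0.39. The alternative activation list had a median of -0.183 over 16 tested genes (0.002 without B6 replicate 1 and -0.320 without B6 replicate 2). Of these, 2 lay wholly above B6 and 1, Tgm2, wholly below, against 7.13% and 13.3% of all genes. Mrc1, the mannose receptor, was at 32.1, 44.6 and 28.2 CPM in B6 and 54.1, 236 and 66.5 CPM in Ch25h-/-, and Il4ra at 268, 469 and 387 CPM against 481, 1107 and 611 CPM. Ch25h-/- replicate 2 was the highest for both. Tgm2, a transglutaminase, was at 140, 134 and 131 CPM against 91.0, 40.6 and 83.7 CPM, and none of the 3 was called.

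**Figure D5:**
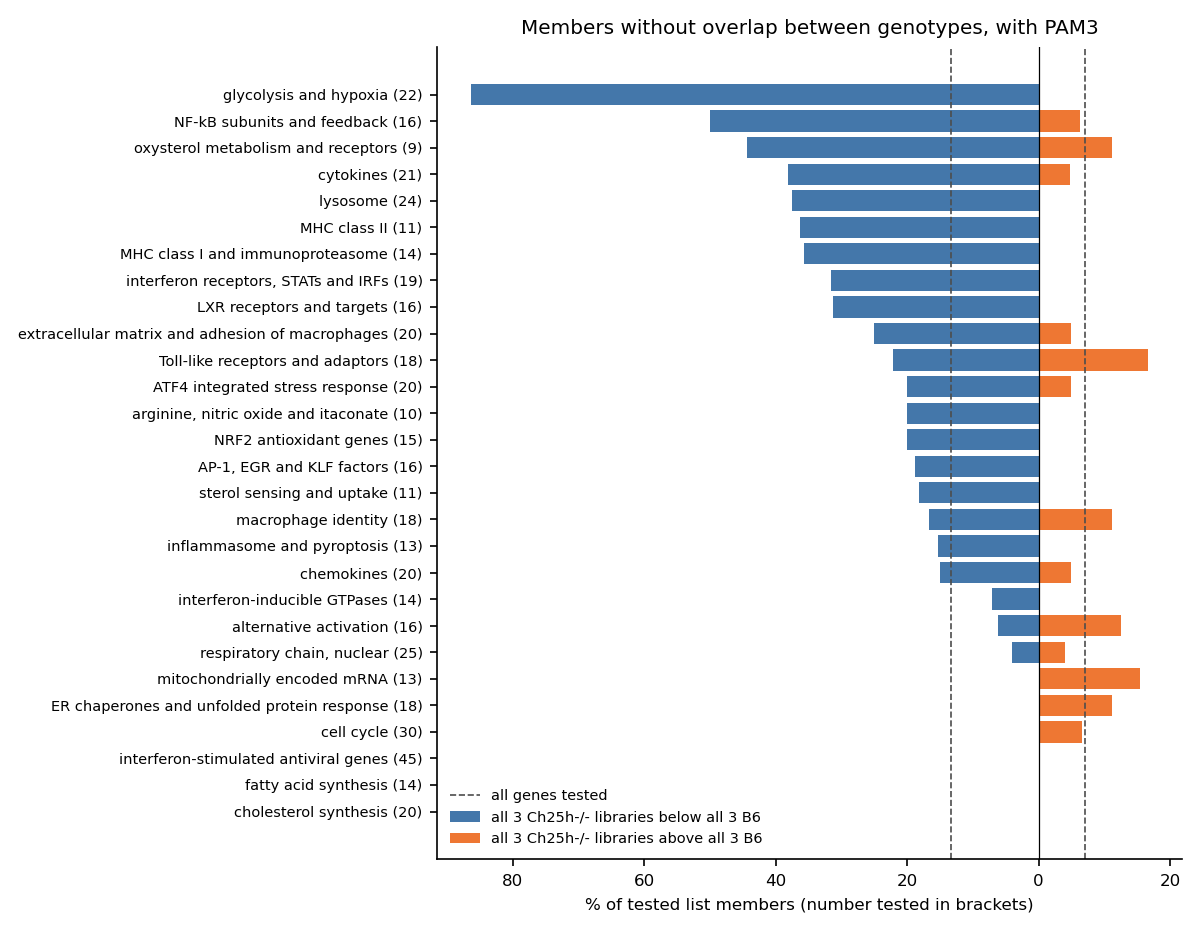
Share of the tested members of each of 28 gene lists (number tested in brackets) for which all 3 Ch25h-/- libraries with PAM3 lay below all 3 B6 libraries (blue, drawn to the left) or above them (orange, to the right), in percent; dashed lines give the same shares over all genes tested, 13.3% and 7.13%. Glycolysis and hypoxia has the longest bar, with 19 of 22 below, while antiviral, fatty acid and cholesterol synthesis genes have no bar.

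Sterol-regulated genes include the classical targets of 25HC. All 20 cholesterol synthesis genes overlapped between the genotypes, with a median of -0.116 (-0.277 to 0.189 over the fits that left out 1 library), and the smallest adjusted p was 0.513. Their summed level was 1996, 1794 and 2074 CPM in B6 and 2225, 1125 and 2327 CPM in Ch25h-/- cells, with Ch25h-/- replicate 2 the lowest for all 20 genes. All 14 fatty acid synthesis genes overlapped too, with a median of -0.185. Of 16 LXR receptors and targets 5 lay wholly below (13.3% of all genes did) and 0 above, with a median of -0.092, and without Ch25h-/- replicate 2 those with an unadjusted p below 0.05 went from 5 to 2. Arl4c was at 50.6, 51.5 and 56.7 CPM against 36.3, 35.3 and 31.6 CPM (-0.62 ± 0.17, adjusted p = 0.107, edgeR), and Nr1h3, which encodes LXR alpha, at 84.2, 104 and 102 CPM against 71.9, 64.8 and 74.4 CPM. The cholesterol exporter Abcg1 was lower by 0.46 ± 0.22 on the log2 scale without passing the test. The members of the highest level, Lpl (0.03 ± 0.28) and Pltp (0.37 ± 0.45), overlapped between the genotypes. Gpr183, the receptor for a product of 25HC, was at 3.40, 2.73 and 3.77 CPM against 2.58, 0.959 and 1.86 CPM (-0.87 ± 0.28, adjusted p = 0.157).

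Interferon-stimulated antiviral genes had more members apart at rest than with PAM3. With PAM3 all 45 overlapped between genotypes (median -0.167), whereas at rest 17 of 45 lay wholly below B6, against 5.49% of all genes, with a median of -0.376. No member was called by the main edgeR fit in either state or in the interaction. With PAM3 0 of 45 had an unadjusted p below 0.05, and the median ran from -0.347 to 0.119 when 1 library was left out. Ch25h-/- replicate 2 with PAM3 was the lowest of its group for 44 of the 45, and without it the median was 0.119. Without genes within 10 Mb of Ch25h, Ifit2 among them, 41 members remained, with a median of -0.17. At rest Ifit2 was at 303, 324 and 213 CPM in B6 and 196, 160 and 156 CPM in Ch25h-/- cells, a log2 difference of -0.71 ± 0.44. Rsad2, which encodes viperin, was at 137, 181 and 131 CPM against 103, 113 and 107 CPM, and Oasl1 at 46.0, 46.8 and 31.8 CPM against 22.3, 23.7 and 31.4 CPM. With PAM3 the log2 difference was 0.10 ± 0.44 for Ifit2 and -0.22 ± 0.31 for Rsad2.

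The effect of added 25HC in B6 cells with PAM3 uses the same 3 untreated B6 libraries as controls, so its values are set beside those of the knockout without a test of likeness. In that comparison 45.1% of all genes were called (21.5% higher and 23.6% lower with 25HC). Gm5150 was at 2.21, 3.19 and 2.45 CPM with 25HC, 11.0, 30.0 and 24.9 CPM without it and 52.6, 129 and 64.7 CPM in Ch25h-/- cells. Dusp8 was at 9.99, 9.95 and 8.72 CPM with 25HC, against 2.68, 1.35 and 1.83 CPM without it and 0.573, 0.218 and 0.279 CPM in Ch25h-/-. The 3 groups did not overlap for either gene. With 25HC the log2 fold change was 1.80 ± 0.16 for Arhgap22, 1.54 ± 0.11 for Rhob, 1.27 ± 0.12 for Cuedc1, 1.04 ± 0.10 for Slc27a4 and 0.88 ± 0.12 for Irf2bp2, where the knockout's were -1.53, -0.62, -0.74, -0.55 and -0.79. Cnr2 was lower in both, by -0.61 ± 0.12 with 25HC and -0.64 ± 0.12 in the knockout. Ccr2 (-0.05 ± 0.21), Mical1 (0.21 ± 0.18), Rgs11 (-0.27 ± 0.14) and Prelid2 (-0.36 ± 0.24) were not called with 25HC.

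PAM3 itself changed 62.1% of all genes in untreated B6 cells (31.3% higher, 30.8% lower), again with the same stimulated libraries on one side. Arhgap22 (-2.83 ± 0.17), Mical1 (-2.61 ± 0.19), Arap3 (-2.47 ± 0.15), Rhob (-2.03 ± 0.11) and Ccr2 (-4.69 ± 0.23) fell with PAM3 on the log2 scale. Gm5150 (3.16 ± 0.38), Prelid2 (2.45 ± 0.25), Sos1 (1.53 ± 0.16) and Grhpr (1.27 ± 0.18) rose. Rgs11 (-0.16 ± 0.14), Bmp2k (0.09 ± 0.14), Slc27a4 (0.20 ± 0.10) and Fgd6 (0.26 ± 0.15) were not called for PAM3 in B6 cells.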

How the data were processed

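Polyadenylated RNA of 18 macrophage cultures was sequenced from Illumina TruSeq stranded libraries, per the labels' protocols. The submitters' processing notes name FastQC 0.11.9, GSNAP, featureCounts, Subread 1.5.2 and edgeR 3.26.8, with the build GRCm38 (mm10). The authors deposited whole-number read counts per gene, not normalised, and no source used here gives the strand setting, the handling of multimapping reads or the annotation release. Positions came from GENCODE M21 (GRCm38) for 30118 of 30530 genes.

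Genes were filtered by edgeR's filterByExpr (12741 tested), normalised by TMM and fitted with glmQLFit over all 18 libraries in 6 groups (edgeR 4.0.16, R 4.3.3). At rest same-numbered libraries of the genotypes correlated at 0.574, 0.705 and 0.327. B6 replicate 3 correlated more with Ch25h-/- replicate 1 (0.366), and Ch25h-/- replicate 3 more with B6 replicate 1 (0.407). The main fit used no block, because a mouse number does not name an animal shared by the genotypes. The mouse number as a block was an alternative only, and it moved the calls with PAM3 from 22 to 381. Differences are log2 fold changes with SE, adjusted by Benjamini-Hochberg over all tested genes, and a gene was called at an adjusted p below 0.05. Levels are CPM computed on TMM-scaled library sizes. Named genes were up to 15 largest rises and falls with a mean of at least 5 CPM and libraries apart (no predicted genes), up to 4 called members of each list (otherwise up to 2 of the highest level), called genes of at least 5 CPM within 10 Mb of Ch25h, and the genes of the interaction with the smallest p. Not every gene of this rule is given, and other list members were chosen after their values were seen. Members and lists were chosen with earlier results of these data known. On simulated counts (12573 genes fitted) the test recovered 82% of 2-fold and 97% of 4-fold changes, with 15 false calls (7.73% of calls). Only genes with a mean of at least 5 CPM were changed. The simulated libraries had no shared animals and none lay apart as Ch25h-/- replicate 2 did, so these rates may not hold here. Alternatives were DESeq2 1.42.0, limma 3.58.1, other filters and scaling, thinned counts and left-out libraries.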

Additional observations from a re-analysis of the deposited data

How the results depend on the processing

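The number of genes called with PAM3 (22) was 23 with DESeq2's size factors, 22 with a filter at 1 CPM and 18 without genes within 10 Mb of Ch25h. By limma-voom 19 genes were called (10 higher, 9 lower), only 13 of the 22 among them. Ch25h itself was not among these (adjusted p = 0.148, limma-voom). The number moved to 13 without a filter on low counts, 404 by DESeq2's Wald test and 0 in a fit of only the groups compared. It was 10 with counts thinned to 14040513 per library and 384 without replicate 2 of every group. The last 2 and limma-voom were chosen after seeing the data. Leaving out 1 library gave 1 to 254 calls. At rest (1 call) the count was 0 without genes within 10 Mb of Ch25h, 21 by DESeq2, 0 in the fit of only those groups, 2 without replicate 2 of every group, and 0 to 4 when 1 library was left out. The interaction (0 calls) gave 2 by DESeq2 and 0 in all other fits. The cause of these changes was not tested.

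Mouse numbers recur in both genotypes. Deviations of same-numbered libraries with PAM3 correlated at 0.322, 0.459 and 0.0949, and each library correlated best with its own number in the other genotype. A number does not name an animal shared by the genotypes, so the main fit did not pair them. With the mouse number as a replicate block 381 genes were called with PAM3 (146 higher, 235 lower, 19 of the 22 among them) and 2 at rest. The interaction with the animal as block gave 0. With the block 8 cytokines, 7 chemokines, 6 glycolysis and hypoxia genes, 3 of the arginine and itaconate list, 2 NRF2, 2 MHC class II, 1 LXR, 1 alternative activation and 1 lysosome gene were called lower, and 1 cytokine, 1 LXR and 2 alternative activation genes higher. Of the antiviral, NF-kB, inflammasome and AP-1, EGR and KLF lists 1 gene each was called lower. Of the Toll-like receptor list 1 was called lower and 1 higher. The fit without the block called 0 in each of these lists.

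None of the 22 called genes changed sign under an alternative. Of the other genes given with values, at least 6 did with PAM3, and this count is not complete. Cd74, for example, was at 44.5, 113 and 45.9 CPM in Ch25h-/- cells against 47.4, 58.3 and 64.8 CPM in B6. Its positive difference thus rested on Ch25h-/- replicate 2. The ranges of the 6 follow. Leaving out 1 library gave log2 differences of -0.48 to 0.075 for Hif1a, -0.16 to 0.031 for Hk2, -0.60 to 0.15 for Ifit1, -0.51 to 0.52 for Ifit2, -0.10 to 0.046 for Lipa and -0.60 to 0.10 for Rsad2. Hk2 was at 0.032 without replicate 2 of every group, Ifit2 at -0.14 with the block and -0.23 by limma-voom, and Lipa at 0.0017 in the fit of only the groups compared and 0.000634 with the block. The Ch25h-/- libraries were shallower than those of B6, which limits genes such as Ch25h, Dusp8 and Bspry to few counts.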

Other observations

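Other gene lists, with PAM3. Of 24 lysosomal genes 9 lay wholly below B6 and 0 above (median -0.205), against 13.3% and 7.13% of all genes. At rest 5 lay wholly below, against 5.49% of all genes. Without Ch25h-/- replicate 2 the median was -0.119, and those with an unadjusted p below 0.05 went from 8 to 3 (also 3 without B6 replicate 3). Ctsd, the cathepsin D gene, was at 6515, 5838 and 7711 CPM in B6 and 5184, 2867 and 4768 CPM in Ch25h-/- cells, a log2 difference of -0.65 ± 0.19 (adjusted p = 0.135, edgeR). For 15 NRF2 antioxidant genes the median was -0.394. Of these, 3 lay wholly below B6, near the share of all genes (13.3%), and 7 had an unadjusted p below 0.05 (14.0% of all genes did). Ch25h-/- replicate 2 was the lowest of its group for all 15, and without it the median was -0.240 with 0 at an unadjusted p below 0.05; without B6 replicate 1 or 3 there were 2.

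mRNAs of the mitochondrial genome ran the other way. At rest 12 of 13 were higher in all Ch25h-/- libraries than in all B6 libraries (4.69% of all genes were), with a median of 0.460, and with PAM3 2 of 13, with a median of 0.288. None was called. Chaperones of the endoplasmic reticulum had a median of 0.178 with PAM3 and -0.123 at rest. With PAM3 2 of 18 lay wholly above B6. Over all genes with PAM3 7.13% did. Neutrophil markers were all 6 higher in every resting Ch25h-/- library; their sum was 5.996 to 8.870 CPM in B6 and 19.36 to 96.41 CPM in Ch25h-/-, with replicate 2 the highest.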
